A study of Mus musculus with 14 samples.

Results

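The genes described here are 46 listed components of TGF-beta and BMP signalling, among 21887 protein-coding genes of the RefSeq annotation of GRCm38. They were taken by symbol and all 46 were found. For each gene, the peaks and the bases under peaks were counted over its locus, which is the gene body with 3 kb either side, and within 3 kb of either gene end. The peaks were of histone H3 lysine 9 crotonylation (H3K9cr) and lysine 9 acetylation (H3K9ac), mapped by ChIP-seq of whole mouse kidney. The 14 libraries came from wild-type (WT) C57BL/6J mice and from mice with a global deletion of ACSS2 (ACSS2-/-), an enzyme that makes acetyl-CoA and crotonyl-CoA, in each case as control or after unilateral ureteric obstruction (UUO), a surgical model of kidney fibrosis. The mice were 6 to 8 weeks old, the knockout was made by CRISPR/Cas9, UUO mice had the left ureter tied and cut, and control mice in the study's methods had the operation without the ligature. The time after the operation is not given for these libraries in the sources used here. Each of the 4 groups of genotype and operation had 2 libraries for H3K9cr. For H3K9ac there were 2 per genotype after UUO but only 1 per genotype as control. The labels do not say that replicates were separate mice, although peaks at Y-linked genes, given below, differed between the 2 libraries of each H3K9cr group. The p-values measure only the spread between these samples.

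TGF-beta and BMP ligands are secreted dimers that bind pairs of type I and type II receptor kinases. The activated type I receptor phosphorylates receptor Smads, Smad2 and Smad3 for TGF-beta and activin or Smad1, Smad5 and Smad9 for BMPs, which enter the nucleus with Smad4. TGF-beta is stored in the matrix in a latent complex with some, not all, LTBP proteins. Inhibitory Smads and Smurf ligases shut the signal off, and antagonists such as noggin, gremlin and follistatin trap ligands outside the cell. In kidney, TGF-beta signalling is best known for driving fibrosis and BMP7 for opposing it in tubules. H3K9cr and H3K9ac are both found at active promoters and enhancers.

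Start-site sequences of the genes that the results turn on are given first, from RefSeq on GRCm38, each from 250 bases before to 50 bases after a listed start. Of the 46 genes, 32 had such an entry, and Bmp7, Tgfbr3 and Fst had none. Ltbp2 is shown because H3K9cr peaks appeared at its start in UUO libraries, Bmp6 and Smad6 because all 14 libraries had a peak within 1 kb of the start while the length under peaks over the whole locus fell, and Grem1 because no library had a peak there. Capitals mark CAGAC, the core of the Smad-binding element, on either strand (read as GTCTG on the other), and the sequence GGCGCC, which BMP Smads can bind and which reads the same on both strands. CAGAC lay in 49.6% of all 32851 windows and in 48.4% of the 21263 windows of protein-coding genes, and GGCGCC in 11.9% and 15.3%, so a match only describes the window. Of the 44 windows of the listed genes, 20 held CAGAC (45.5%), 14 held GGCGCC (31.8%) and 1 held TGANTCA, the site of AP-1, against 7.81% of all windows and 6.99% of those of protein-coding genes.
Ltbp2, chr12:84876442-84876741, minus strand: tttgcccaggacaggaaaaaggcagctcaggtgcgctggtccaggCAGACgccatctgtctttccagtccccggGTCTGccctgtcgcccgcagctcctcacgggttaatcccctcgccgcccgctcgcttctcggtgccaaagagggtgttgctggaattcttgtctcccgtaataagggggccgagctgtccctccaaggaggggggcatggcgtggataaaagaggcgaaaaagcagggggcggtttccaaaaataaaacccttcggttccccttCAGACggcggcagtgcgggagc
Bmp6, chr13:38345466-38345765, plus strand: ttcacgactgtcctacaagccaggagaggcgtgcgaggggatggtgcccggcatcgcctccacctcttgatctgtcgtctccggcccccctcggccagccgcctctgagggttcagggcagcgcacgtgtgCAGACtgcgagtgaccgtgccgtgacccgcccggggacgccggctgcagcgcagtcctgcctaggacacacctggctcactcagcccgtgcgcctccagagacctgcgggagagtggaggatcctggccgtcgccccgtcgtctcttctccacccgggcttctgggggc
Smad6, chr9:64022010-64022309, minus strand: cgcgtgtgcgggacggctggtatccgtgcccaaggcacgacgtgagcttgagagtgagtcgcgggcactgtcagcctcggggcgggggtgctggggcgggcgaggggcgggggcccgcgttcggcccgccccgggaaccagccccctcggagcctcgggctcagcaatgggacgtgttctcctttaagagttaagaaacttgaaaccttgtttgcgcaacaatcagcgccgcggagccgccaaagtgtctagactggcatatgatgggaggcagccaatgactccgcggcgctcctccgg
Grem1, chr2:113758599-113758898, minus strand: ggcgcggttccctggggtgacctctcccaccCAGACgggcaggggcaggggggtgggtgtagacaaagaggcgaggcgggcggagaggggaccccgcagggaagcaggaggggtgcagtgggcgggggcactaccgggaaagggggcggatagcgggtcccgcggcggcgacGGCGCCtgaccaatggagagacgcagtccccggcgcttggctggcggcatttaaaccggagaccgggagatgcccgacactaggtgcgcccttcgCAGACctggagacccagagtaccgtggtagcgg
The Ltbp2 window held 3 copies of CAGAC, the Grem1 window 2 and the Bmp6 window 1, whereas the Smad6 window held neither motif. Windows of the listed genes had a median of 24 CG dinucleotides, against 13 over protein-coding genes. The Grem1 window, which no peak touched in any library, had 28, more than 81.2% of protein-coding windows.

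A library held from 15988 to 45014 peaks, which covered from 17.7 to 64.6 Mb. The largest cover was that of ACSS2-/- control replicate 1 for H3K9cr, and the lists give no peak height, score or read depth. H3K9cr libraries covered 41.7 to 64.6 Mb in control and 29.4 to 44.6 Mb in UUO kidneys, and H3K9ac libraries 34.2 and 51.1 Mb in control and 17.7 to 30.9 Mb in UUO kidneys. Differences are therefore given beside the median over all genes tested and, where it matters, after scaling every library to the same total covered length. In 4 UUO libraries the peak names held another replicate number than the label. In 6 libraries peaks lay at all 4 Y-linked genes examined, and in the other 8 at none. Every H3K9cr group had 1 of each kind, which 2 libraries of a single mouse would not give. For H3K9ac, peaks lay at all 4 in the WT control library and at none in both WT UUO libraries. In ACSS2-/- they lay at none in the H3K9ac control library and UUO replicate 1, and at all 4 in UUO replicate 2. The Acss2 locus kept peaks in the knockout, over 1291 to 5852 bases for H3K9cr against 1785 to 2027 in WT, so these lists do not check the genotype. The chromatin was of whole kidney, in which fewer cells of a type and less mark per cell cannot be told apart. Defining markers of kidney were present: all 8 proximal tubule markers and 6 of 7 markers of the distal nephron were tested, while Nphs1 of podocytes had no peak in any library. Of 4 genes of liver and muscle, Alb and Myh4 had no peak in any library, but Apoa1 had 312 to 839 bases in each of the 8 H3K9cr libraries and Ckm had 376 to 980 bases in 4 of the 14 libraries.

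Most of the 46 genes carried both marks at a gene end in every library. A library had a peak within 3 kb of an end at 37 to 42 of them (80.4% to 91.3%), against 53.0% to 62.5% of all protein-coding genes. The number was 39 or 40 in each of the 8 H3K9cr libraries, 41 and 42 in H3K9ac control libraries and 37 to 40 in H3K9ac UUO libraries. Grem1, the gremlin antagonist of BMPs, had no peak in any of the 14 libraries at the locus. Tgfb2 and Inhba, which encode TGF-beta 2 and the activin A subunit, had none at an annotated end, although a start listed inside the gene carried a peak within 1 kb in 14 and 13 libraries. Nog had an end peak in 4 libraries, Fst in 2 (the H3K9ac control libraries) and Ltbp2 in 7. The secreted antagonists thus had the fewest bases: over all libraries Nog had a mean of 163 bases under peaks, Fst 65.8 and Grem1 0. As a share of the locus, Nog (2.06%) was above Tgfb2 (1.92%), and Fst (0.517%) above Ltbp1 (0.411%).

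By share of the locus under peaks, Id3, Id2 and Id1 stood highest, but their loci are short (7571, 8294 and 7160 bases). In bases, Smad3, Smad7 and Smad6 had the most, with a mean of 19050 for Smad3 against 6755 for Id3. Id genes encode inhibitors of basic helix-loop-helix factors and are direct BMP targets. On average over 14 libraries, peaks covered 89.2% of the Id3 locus, 76.4% of Id2 and 64.5% of Id1, but 20.9% of Id4. Tgif1, a co-repressor of Smads, followed with 57.1% and Smad7, the inhibitory Smad of the TGF-beta branch, with 54.2%. Id3 had between 6596 and 7571 bases in H3K9cr libraries, of which 5 of 8 were at 7571, the whole length of the locus, so a further increase could not be seen there. Id2 had between 5702 and 6829, with control and UUO ranges that overlapped. Among ligands the order by share was Bmp4 (28.9%), Tgfb1 (18.8%), Inhbb (8.91%), Bmp7 (6.59%) and Bmp2 (6.20%), with Tgfb2 last at 1.92%. This mean pools both marks and operations, and the order changed among them. Bmp7 covered 14.4% of its locus in H3K9cr control libraries, above Inhbb (6.67%) and Bmp2 (3.92%), but 1.38% in H3K9ac UUO libraries, below both (8.79% and 6.46%). Among receptors it was Acvrl1 (25.2%), Acvr1b (17.9%) and Acvr2b (6.80%) down to Bmpr1b (0.265%), a gene of 332451 bases. These shares compare genes within the same libraries, and neighbours in the order were not tested against each other.

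**Figure D1:**
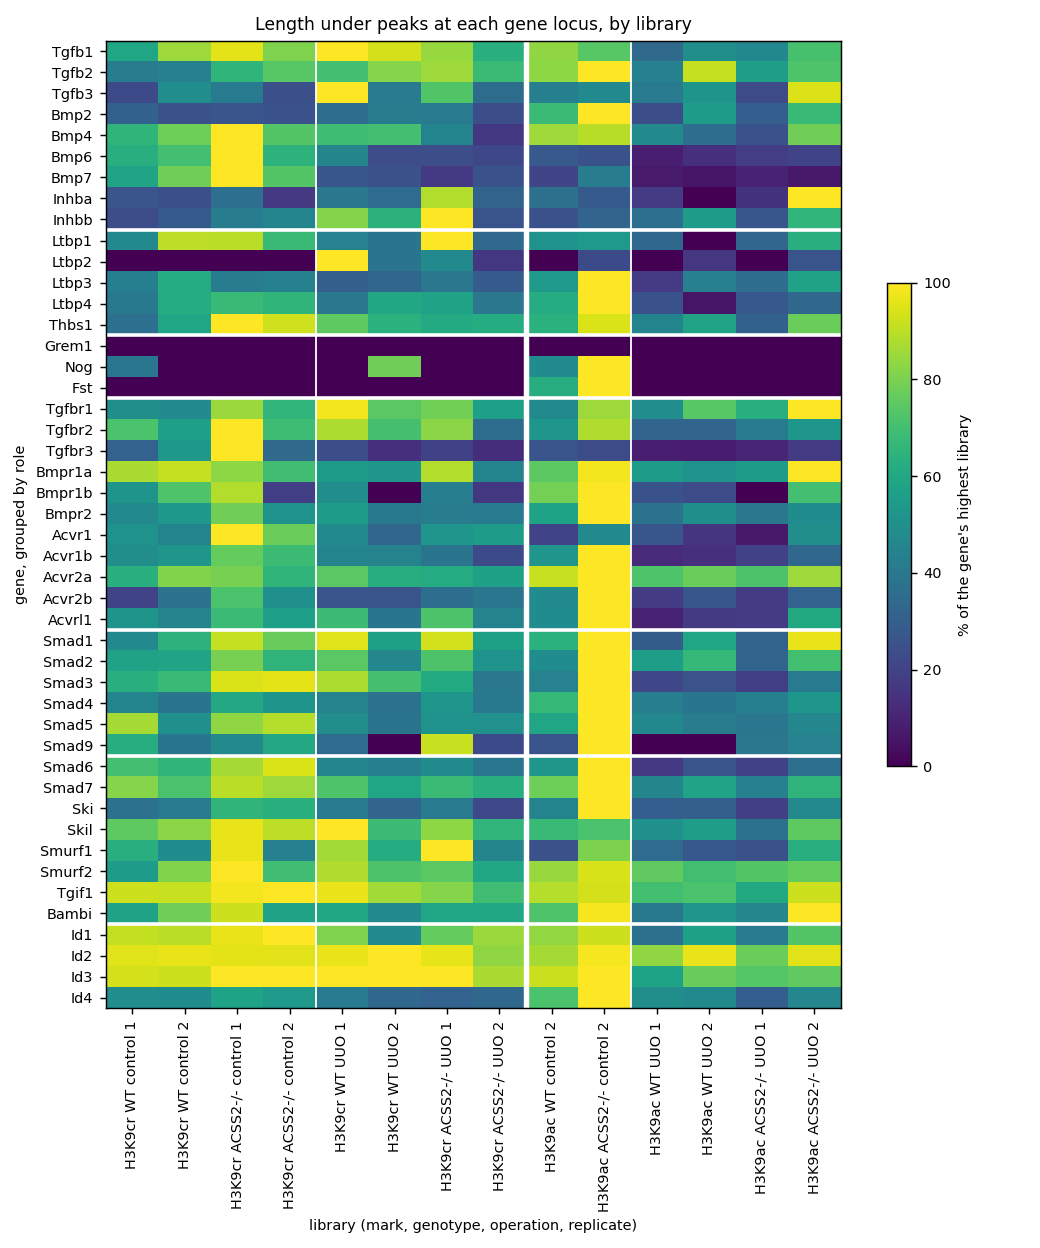
Bases under peaks at the locus of each of the 46 genes (rows, grouped by role, white lines between roles) in each of the 14 libraries (columns, H3K9cr to the left of the thick line), as percent of that gene's highest library. Ltbp2 is at 0 in the 4 H3K9cr control libraries, Grem1 is at 0 throughout, and the H3K9ac ACSS2-/- control library is the highest for many genes.

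The first comparison asked whether H3K9cr over these genes differed between obstructed and control kidneys. Of the 45 genes tested, 1 was higher in UUO and 7 were lower (limma, adjusted p under 0.05 over 15272 genes), where 2.61% of all genes tested were higher and 12.5% lower. The gene that rose was Ltbp2, which encodes a matrix protein of the LTBP family. Those that fell were the BMP ligands Bmp7 and Bmp6, the receptors Tgfbr3 and Acvr1b, Smad5 and Smad6 of the BMP branch, and the target Id4. The median log2 difference of the listed genes was -0.19, against -0.16 over all genes. With all libraries scaled to the same total covered length, the median of all genes moved to 0.17, and 5 listed genes were then higher and 3 lower (background 7.31% and 5.32%). Ltbp2, Bmp7, Bmp6 and Tgfbr3 were called under both scalings.

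Ltbp2 was the only listed gene called higher for H3K9cr as deposited. It had 0 bases under H3K9cr peaks in all 4 control libraries. After UUO it had 4429 and 1701 bases in WT and 2121 and 716 in ACSS2-/-. The groups did not overlap. The log2 difference was 2.28 ± 0.47 (SE, limma, adjusted p = 0.0134), a value that depends on the 500 bases added to every value, since the controls were at 0. The peaks formed 7 intervals on the gene. One, chr12:84847069-84848490, lay 28001 bases from the listed start and held a peak in 4 of 4 H3K9cr UUO libraries and in no other library. The ACSS2-/- UUO peaks in it, 29.0 to 29.5 and 28.6 to 28.9 kb from the start, did not overlap each other. The start itself lay in chr12:84875706-84877034, with a peak in 3 of 4 H3K9cr UUO libraries, 0 of 4 controls and 2 of 4 H3K9ac UUO libraries. The start sequence printed above lies within this interval. Without ACSS2-/- control replicate 1 the limma adjusted p of Ltbp2 was 0.0542, and within 3 kb of the gene ends alone it was 0.0632. For H3K9ac, Ltbp2 had 0 and 993 bases in control and 0, 705, 0 and 1156 in UUO libraries, which overlapped.

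On the log2 scale, Bmp7 had the largest loss of H3K9cr among the listed genes. In bases, Smad6 (means 21453 in control and 11936 in UUO libraries) and Tgfbr3 (13186 and 4224) lost more. For Bmp7 the values were as follows. Control libraries had 8525 and 11427 bases in WT and 14556 and 10672 in ACSS2-/-, whereas UUO libraries had 3900 and 3583 in WT and 2447 and 3676 in ACSS2-/-. Every control library lay above every UUO library, with means of 11295 ± 2498 and 3402 ± 650 (SD, n = 4 each). The log2 difference was -1.59 ± 0.18 (SE, limma, adjusted p = 0.00142), and -1.17 (adjusted p = 0.0201) at equal total covered length. Bmp7 was the 1 listed gene called when WT libraries alone were compared (-1.29, limma adjusted p = 0.0351, background 1.36% higher and 2.02% lower). It was one of 3 called in ACSS2-/- alone, beside Bmp6 and Acvr1b (background 0.622% higher and 10.8% lower). The call held without any single library (limma adjusted p at most 0.00878). At its end at the higher coordinate, chr2:172936825-172941019 held a peak in all 14 libraries. There, H3K9cr covered 2123, 2824, 3898 and 3274 bases in control and 1826, 1725, 1796 and 2366 in UUO libraries, lower on the whole after UUO but with ranges that overlapped. Inside the gene, chr2:172905399-172907060 held a peak in 4 of 4 H3K9cr control libraries, in 0 of 4 UUO libraries and in no H3K9ac library. The WT control replicate 1 peak in it lay 34.4 to 34.9 kb from the end at the higher coordinate. It did not overlap the ACSS2-/- control peaks, at 33.3 to 34.2 and 33.4 to 34.1 kb. Counted within 3 kb of the gene ends alone, the log2 difference of Bmp7 was -0.48 (limma, adjusted p = 0.0696).

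Bmp6, a BMP ligand that in liver controls hepcidin, followed the same layout. It had 7813, 8763, 12488 and 8069 bases in control and 5688, 2960, 2949 and 2689 in UUO libraries, without overlap. The log2 difference was -1.30 ± 0.22 (SE, limma, adjusted p = 0.00619), and -0.89 (adjusted p = 0.0137) at equal total covered length. The start lay in chr13:38345002-38348706, which held peaks in all 14 libraries. A second interval, chr13:38351120-38352747 and 5403 bases from the start, held a peak in 4 of 4 H3K9cr control libraries and in 0 of 4 UUO libraries. Within 3 kb of the gene ends alone, the log2 difference of Bmp6 was -0.35 (limma, adjusted p = 0.163). The locus of Bmp6 also holds an end of Txndc5, so some peaks may belong to either gene.

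**Figure D2:**
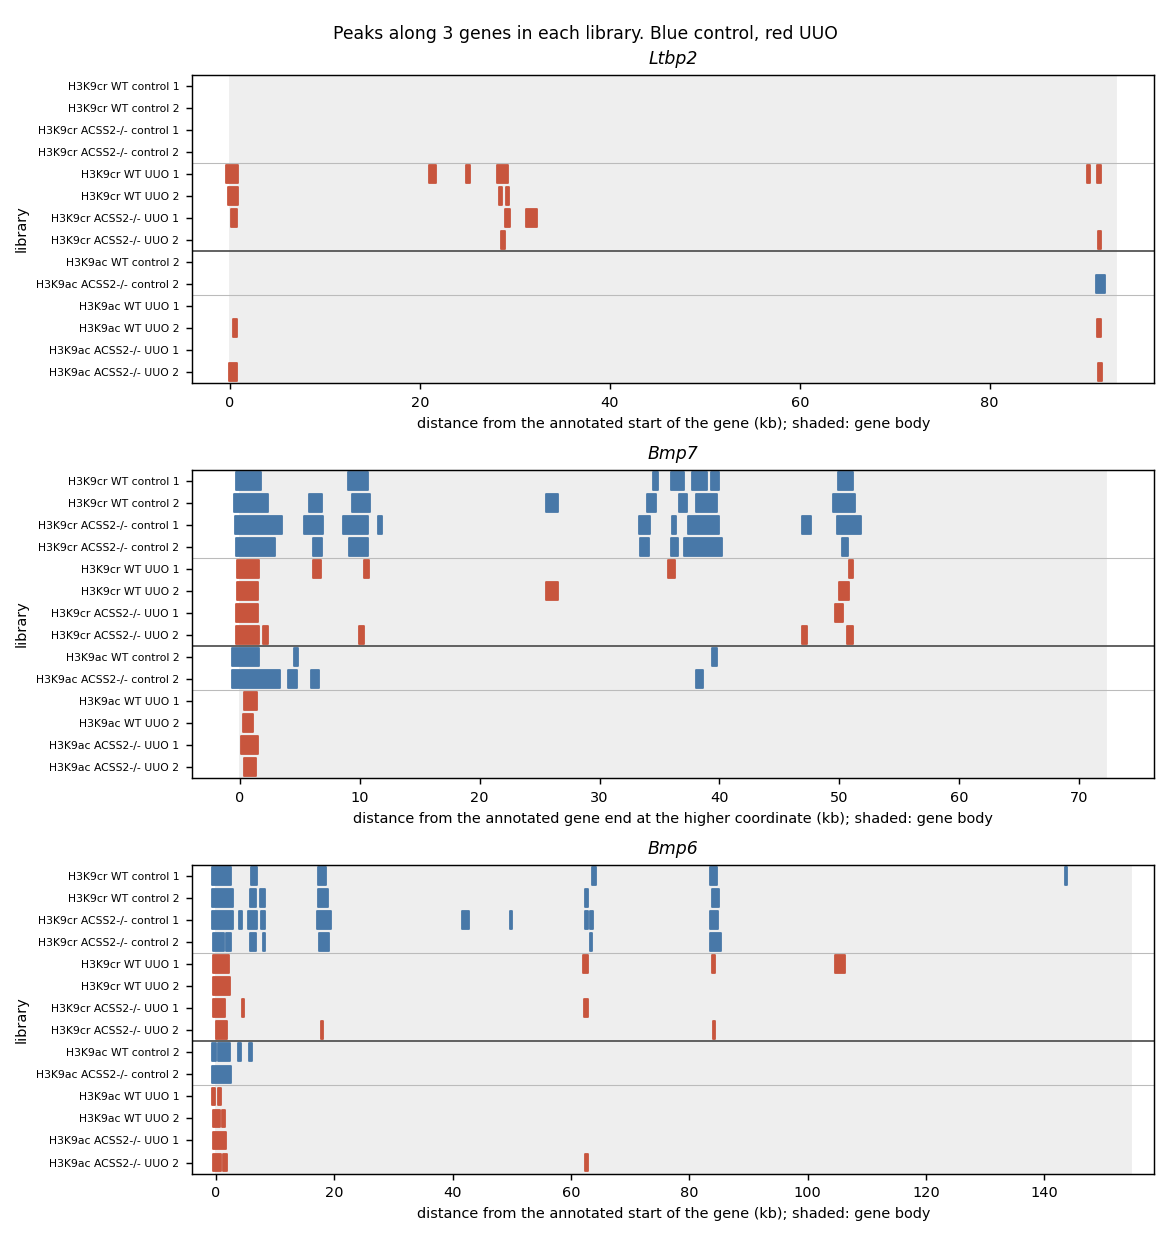
Peaks along Ltbp2, Bmp7 and Bmp6 (bars) in each library (rows, blue control and red UUO), by distance in kb from the annotated start, or for Bmp7 from the gene end at the higher coordinate, with the gene body shaded. At Bmp7 and Bmp6 the peaks at 0 kb are in all 14 libraries while those inside the gene are mostly in H3K9cr control libraries, and at Ltbp2 the H3K9cr peaks are in UUO libraries alone.

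Tgfbr3, the co-receptor betaglycan, had 7539, 12842, 24071 and 8290 bases under H3K9cr peaks in control libraries. In UUO libraries it had 5806, 3257, 4680 and 3153, all below the controls. The difference was -1.42 ± 0.35 log2 (SE, limma, adjusted p = 0.0276), and -1.01 (adjusted p = 0.0344) at equal total covered length. This call rested on few libraries. Without WT control replicate 2, WT UUO replicate 2, ACSS2-/- control replicate 1 or ACSS2-/- UUO replicate 2 the limma adjusted p was 0.0974, 0.107, 0.0739 and 0.0910. Peaks at its end at the higher coordinate, chr5:107286880-107289736, were in all 14 libraries, and within 3 kb of the ends the log2 difference of Tgfbr3 was -0.03.

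The remaining 4 genes called lower had smaller differences on the log2 scale. Smad6, the inhibitory Smad of the BMP branch, had 19042, 17741, 23496 and 25534 bases in control and 12265, 11717, 13107 and 10654 in UUO libraries, a log2 difference of -0.81 ± 0.21 (SE, limma, adjusted p = 0.0328). Acvr1b, a type I receptor for activin, had 9042 to 13910 in control and 4129 to 8243 in UUO libraries (-0.69, limma adjusted p = 0.0469). Smad5, a BMP receptor Smad, had 2122 to 3764 and 1628 to 2164, ranges that overlapped (-0.57, limma adjusted p = 0.0473). Id4 had 2225 to 2667 in control and 1443 to 1885 in UUO libraries (-0.47, limma adjusted p = 0.0495). Control and UUO libraries did not overlap for Smad6, Acvr1b and Id4. At equal total covered length, none of these 4 genes was called (limma adjusted p = 0.14 for Smad6, 0.194 for Acvr1b, 0.511 for Smad5 and 0.584 for Id4), and the direction stayed. Of the 14 fits without 1 library, the call held in 6 for Smad6, 5 for Acvr1b, 3 for Smad5 and 2 for Id4. With 1 library left out, fewer listed genes were called in every case than with all libraries. The count was among the lowest without ACSS2-/- control replicate 1 and without WT UUO replicate 2. Shares over all genes are not given for these fits.

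**Figure D3:**
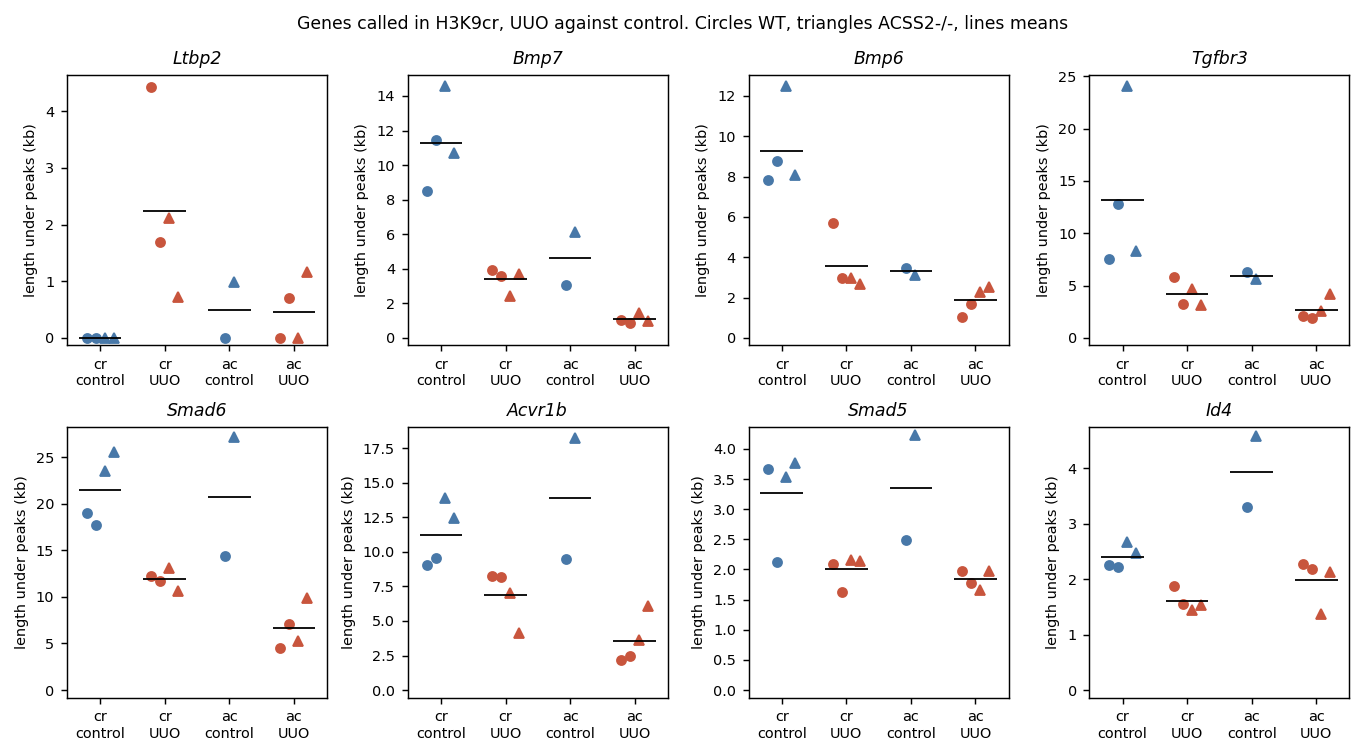
Length under peaks in kb at the 8 genes called in the comparison of H3K9cr between UUO and control kidneys, 1 point per library (circles WT, triangles ACSS2-/-, horizontal lines group means), with H3K9ac to the right of each panel. The H3K9cr groups do not overlap in 7 of the 8 panels, and overlap for Smad5.

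Of the TGF-beta ligands and their receptors, Tgfbr3 was thus the 1 called as deposited. Tgfb1, the main fibrogenic ligand, had 3642, 5297, 5950 and 4998 bases under H3K9cr peaks in control and 6198, 5800, 5253 and 3934 in UUO libraries. The ranges overlapped (log2 difference 0.08, limma adjusted p = 0.820). Tgfb2 (0.36, limma adjusted p = 0.245), Tgfbr1 (0.27, 0.414) and the activin B subunit gene Inhbb (0.61, 0.239) were likewise not called as deposited. At equal total covered length these 4 were called higher, with log2 differences of 0.48 for Tgfb1, 0.68 for Tgfb2, 0.64 for Tgfbr1 and 0.86 for Inhbb (limma adjusted p = 0.0474, 0.0434, 0.00984 and 0.0418). Tgfb3, Inhba and Bmp2 had log2 differences of 0.58, 0.58 and 0.23 as deposited, without a call under either scaling. Tgfbr2, the type II receptor of TGF-beta, had 4196 to 7428 bases in control and 2619 to 6518 in UUO libraries, which overlapped. Its log2 difference was -0.14 as deposited and 0.26 at equal total length, so its direction turned with the scaling. The same held for Smad3 (-0.33 and 0.10), Smad7 (-0.31 and 0.12), Skil (-0.11 and 0.26), Bambi (-0.25 and 0.10), Thbs1 (-0.04 and 0.35) and Id1 (-0.37 and 0.03), none of them called.

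**Figure D4:**
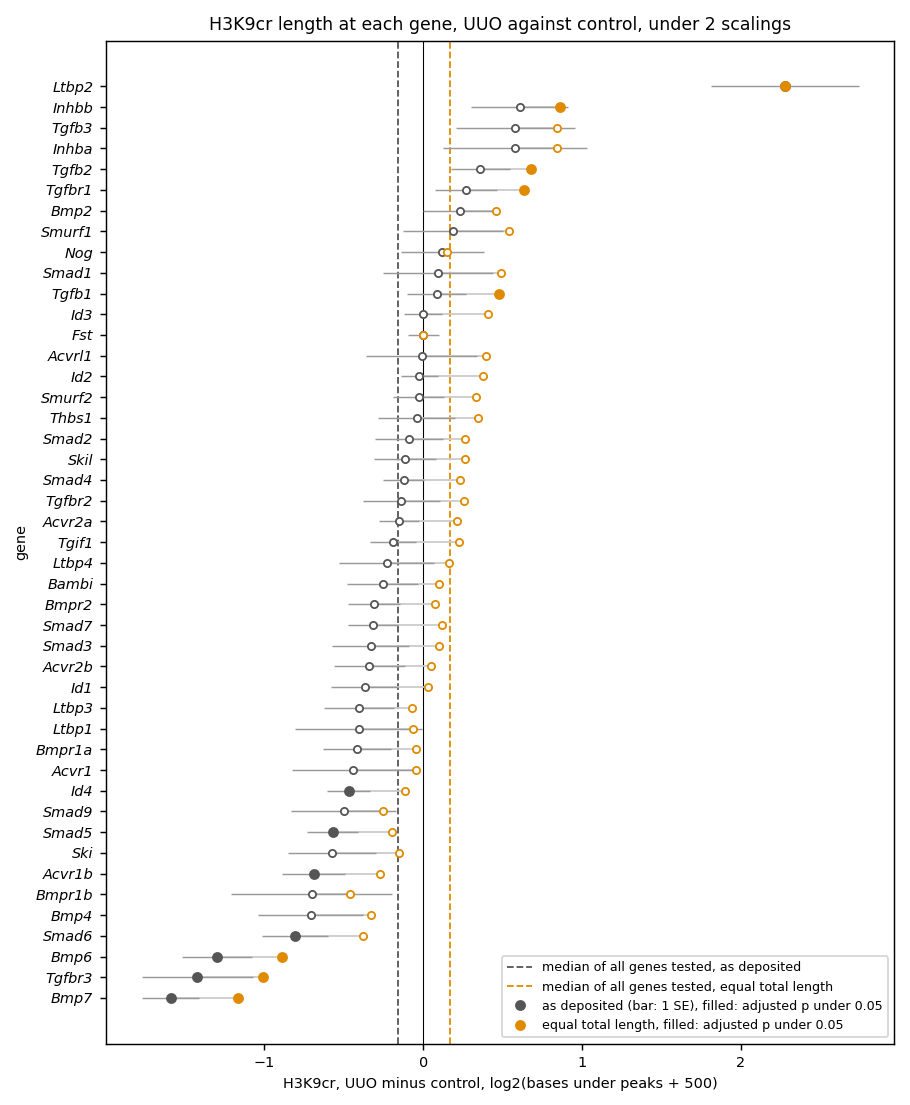
Difference in H3K9cr between UUO and control kidneys for each of the 45 genes tested, on the log2(bases under peaks + 500) scale, as deposited (grey, bars 1 SE) and at equal total covered length (orange), with filled points for a limma adjusted p under 0.05 and dashed lines for the medians over all genes tested (-0.16 and 0.17). Ltbp2 is highest and Bmp7, Tgfbr3 and Bmp6 are lowest under both scalings, while most other genes lie near the medians.

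By role, 2 of 9 ligands, 2 of 11 receptors and 1 of 6 signal transducers fell for H3K9cr after UUO. So did 1 of 8 intracellular or membrane inhibitors and 1 of 4 Id targets. Of the 5 genes grouped under latency and activation, 1 rose, Ltbp2, grouped there with the other LTBP genes. No secreted antagonist was called, with 2 of 3 tested. With 12.5% of all genes lower, counts this small in a role do not set it apart. By rank alone, 1 listed gene (Ltbp2) was higher in every H3K9cr UUO library than in every control library, and 8 were lower (Bmp7, Tgfbr3, Bmp6, Smad6, Acvr1b, Id4, Ltbp3 and Id1). Over all genes tested, 2.46% were higher and 17.3% lower in this way. Ltbp3, another gene of the LTBP family, had 1747 to 2577 bases in control and 1209 to 1650 in UUO libraries. Id1 had 5498 to 6142 and 2970 to 5208, and neither gene was called.

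Cell type markers moved in the same H3K9cr comparison. Of 8 proximal tubule genes, 7 were lower, and their summed length fell from between 27.4 and 58.6 kb in control to between 3.48 and 8.99 kb in UUO libraries. Of 6 distal nephron and collecting duct genes tested, 2 were lower, from between 22.4 and 37.8 kb to between 9.62 and 13.9 kb. Of 8 leukocyte genes tested, 4 were higher, from between 2.55 and 9.91 kb to between 10.3 and 29.7 kb, and 3 of 5 injured tubule genes were higher, from between 3.67 and 5.89 kb to between 5.45 and 15.7 kb. None of 7 stroma genes was called (4.56 to 12.5 kb and 4.44 to 15.0 kb), 1 of 6 endothelial genes was lower (8.26 to 22.5 kb and 5.22 to 15.0 kb), and 1 of 2 podocyte genes tested was lower (3.30 to 8.82 kb and 1.95 to 3.59 kb). The part of these shifts in the differences at Bmp7, Bmp6, Tgfbr3 and Ltbp2 was not tested.

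Length near start sites and elsewhere was summed separately. For the 32 genes with a listed start, the summed length of H3K9cr within 1 kb of a start was 51.3 ± 1.88 kb in control and 48.8 ± 3.63 kb in UUO libraries (SD, n = 4 each), a ratio of 0.951. In the rest of the loci it was 122 ± 27.0 kb in control and 87.5 ± 21.6 kb in UUO libraries, a ratio of 0.718. The window near 1 start holds 2001 bases, and it was wholly covered in all H3K9cr control libraries for 6 of the 32 genes, in all H3K9cr UUO libraries for 3 of them, and nearly so for others, so the length near starts had less room to differ. For H3K9ac the ratios were 0.826 near starts and 0.403 in the rest. Over all tested genes with a listed start the ratios were 0.942 and 0.643 for H3K9cr and 0.760 and 0.396 for H3K9ac, the same layout. Of the 32 genes, 24 had a peak within 1 kb of a listed start in all 14 libraries (75.0%, against 69.2% of the 12170 genes tested that have a listed start), and Grem1 had none.

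**Figure D5:**
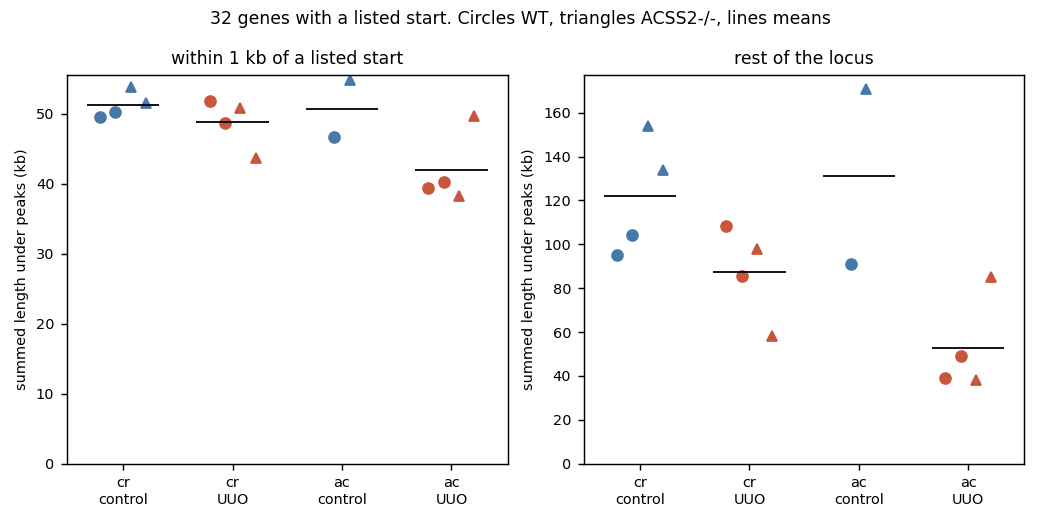
Summed length under peaks in kb over the 32 genes with a listed start, within 1 kb of a start (left) and in the rest of the loci (right), 1 point per library (circles WT, triangles ACSS2-/-, lines group means). Near starts the 14 libraries lie between 38.2 and 54.8 kb, while in the rest they run from 38.1 to 171 kb with UUO means below control means for both marks.

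Across all libraries the peaks at the 45 genes merged into 291 intervals. Of these, 43 held a peak in all 14 libraries and 113 in 1 library only. H3K9cr was found in 242 intervals and H3K9ac in 193, with 144 shared, 98 with H3K9cr only and 49 with H3K9ac only. H3K9cr lay in 4 of 4 control and 0 of 4 UUO libraries at 6 of the 291 (2.06%), against 1.52% of the 56753 intervals over all genes tested. Besides those at Bmp7 and Bmp6 above, they lay in Smad3 (chr9:63702319-63703651), Smad6 (chr9:63984318-63985558), Ski (chr4:155206918-155208831) and Thbs1 (chr2:118124628-118126658). The Ltbp2 interval was the 1 that did the reverse (0.344%, against 0.444% over all genes tested). For Thbs1, whose product thrombospondin 1 activates latent TGF-beta, the summed length was 1990 to 5454 bases in control and 3343 to 4093 in UUO libraries.

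The same question was asked of H3K9ac. After UUO, 16 of the 45 genes tested were lower and 0 were higher (limma, adjusted p under 0.05), where 34.7% of all genes tested were lower and 0.314% higher. Without adjustment, 0 listed genes were higher and 24 lower at a limma p under 0.05, where 0.563% of all genes were higher and 50.5% lower. These shares were near those of all genes. One of the 16, Fst, had peaks in the 2 control libraries alone and passed the filter on genes only through them, so its call carries no weight. The median log2 difference was -0.71 for the listed genes and -0.53 over all genes. Among the 16 called, the 12 with the largest differences were Acvr1b, Ltbp4, Bmp7, Smad6, Acvrl1, Acvr2b, Smad3, Nog, Ski, Fst, Id4 and Ltbp3, from -1.85 to -0.83, and Smad4, Smad7, Bmpr2 and Smad5 followed with -0.75 to -0.68. Acvr1b had 9488 and 18232 bases under H3K9ac peaks in the 2 control libraries and 2155, 2432, 3599 and 6056 in the UUO libraries, without overlap (-1.85 ± 0.24 log2, SE, limma adjusted p = 0.00241). Bmp7 had 3068 and 6127 in control and 1049, 837, 1434 and 1002 in UUO libraries (-1.63 ± 0.22, limma adjusted p = 0.00268). Smad3, the receptor Smad most tied to fibrosis, had 14265 and 32053 in control and 6835, 8158, 6009 and 13358 in UUO libraries (-1.33 ± 0.30, limma adjusted p = 0.0135). By rank, 23 listed genes were lower in every H3K9ac UUO library than in both controls and 0 were higher, where 47% of all genes tested were lower and 0.399% higher.

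These H3K9ac differences moved with the total covered length. At equal total length 2 listed genes were lower (Acvr1b, limma adjusted p = 0.0101, and Fst) and 2 higher (Tgfbr1, log2 difference 0.93, limma adjusted p = 0.00944, and Id2, 0.81, 0.0316), where 4.14% of all genes were lower and 3.04% higher, and the median of all genes was 0.14. As deposited, Tgfbr1 had 2097 and 3765 bases under H3K9ac peaks in control and 2159 to 4402 in UUO libraries, which overlapped. Id2 had 5917 and 6748 in control and 5292 to 6595 in UUO libraries, also overlapping, of a locus of 8294 bases. The scaling set no limit at the locus length, so the call of Id2 does not show a gain there. At this scaling Smad4, Smad5, Smad7 and Bmpr2 changed direction, to between 0.05 and 0.19. With H3K9ac libraries alone in the limma fit, 0 of the 14114 genes then tested were called, listed or not. With 1 library left out, the count of listed genes called was lowest without WT UUO replicate 1 and highest without ACSS2-/- UUO replicate 2. Shares over all genes are not given for these fits, so this describes the fits alone. With 1 control library per genotype, a control group was assumed to vary like the others. In WT, peaks at Y-linked genes, given above, also set the H3K9ac control library apart from the UUO libraries. Operation and Y-linked peaks therefore cannot be separated within the WT libraries of this mark. With a term for peaks at Y-linked genes in the fit, 5544 of 15272 genes were called for H3K9ac in UUO against control, against 5352 without it.

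The genotype comparisons asked whether deletion of ACSS2 altered the marks at these genes. In UUO kidneys, 0 of 45 genes were called for H3K9cr between ACSS2-/- and WT (limma, adjusted p under 0.05), where 0.144% of all genes tested were called in either direction. At an unadjusted p under 0.05 there was 1 (4.22% of all genes were lower and 1.02% higher), Bmp4, with 4166 and 4247 bases in WT and 2737 and 974 in ACSS2-/- UUO libraries (log2 difference -1.11 ± 0.47, limma adjusted p = 0.940). For H3K9ac in UUO kidneys 0 were called (background 0.0131%) and 2 had an unadjusted p under 0.05, Acvr1b (0.89) and Smad9 (1.39), both higher in ACSS2-/-, where 8.96% of all genes were higher and 0.314% lower. In control kidneys 0 were called for H3K9cr (background 0.0917%) and 2 had an unadjusted p under 0.05, Acvr2b (0.95) and Thbs1 (0.92), both higher in ACSS2-/-, where 8.66% of all genes were higher and 0.308% lower. The fibrosis ligand Tgfb1 differed by -0.36 ± 0.27 log2 for H3K9cr in UUO kidneys and Bmp7 by -0.27 ± 0.25, each less than 2 SE.

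No difference between genotypes in the effect of UUO was called at the listed genes. In the test of the interaction for H3K9cr, 0 of 45 were called (limma, background 0.072% in either direction) and 2 had an unadjusted p under 0.05, both lower, where 8.97% of all genes were lower. These were Smad3 and Acvr1b. Smad3 had 20252 and 21708 bases in WT control, 28158 and 22580 in WT UUO, 30245 and 30679 in ACSS2-/- control and 19602 and 12799 in ACSS2-/- UUO libraries. The log2 effect of UUO on Smad3 was 0.26 in WT and -0.92 in ACSS2-/-, and the difference of -1.18 ± 0.48 had a limma adjusted p of 0.502. For Acvr1b the effects were -0.17 and -1.21, and the difference of -1.04 ± 0.39 had a limma adjusted p of 0.471. Over all genes tested the median of this difference was -0.32, and that of the listed genes -0.36. By rank over all H3K9cr libraries, 1 listed gene was higher in every ACSS2-/- than in every WT library and 0 were lower, where 0.851% of all genes tested were higher and 0.288% lower. This was Acvr1, a type I BMP receptor, with 2316 to 3586 bases in WT and 3632 to 6982 in ACSS2-/- libraries. The locus of Acvr1 also holds an end of Upp2.

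The marks themselves were compared over all groups. H3K9cr covered more than H3K9ac at Bmp7 (log2 difference 1.28 ± 0.14, limma adjusted p = 0.00142), Bmp6 (1.05, 0.00619) and Smad3 (0.74, 0.0341). It covered less at Bmp2 (-0.65, limma adjusted p = 0.0434), Id4 (-0.41, 0.0332) and Fst, whose call again rests on the 2 H3K9ac control libraries alone. These were 3 and 3 of 45, where 11.9% of all genes tested were higher for H3K9cr and 4.45% lower. Bmp7 had 2447 to 14556 bases under H3K9cr and 837 to 6127 under H3K9ac peaks. Bmp2 had 584 to 1022 under H3K9cr and 587 to 2445 under H3K9ac peaks, which overlapped. So did Smad3, with 12799 to 30679 and 6009 to 32053. In fits without 1 library the calls of Bmp7 and Bmp6 held, while those of Smad3, Bmp2 and Id4 were lost in most. With the replicate number as a block, Smad3, Bmp2 and Id4 were not called. Within 3 kb of the gene ends alone, Bmp7, Bmp6, Smad3 and Bmp2 were not called, nor was Smad3 at equal total covered length. At equal total covered length 2 listed genes were higher for H3K9cr and 18 lower, where 8.70% of all genes were higher and 41.5% lower, and the median of all genes moved from 0.06 to -0.29. The antibodies differ between the marks, so lengths of the 2 marks also reflect how each antibody enriches.

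The effect of UUO was called different between the marks at 1 of the 45 genes (limma, adjusted p under 0.05), where 0.432% of all genes tested were. This was Fst, which encodes the activin antagonist follistatin, and the call cannot be relied on. Its H3K9ac peaks covered 353 bases in the WT and 568 in the ACSS2-/- control library, at positions that did not overlap, and 0 bases in each of the other 12 libraries of either mark. Fst passed the filter only through those 2 libraries, each the only one of its group, and every group with replicates was at 0, so the error of the test holds no spread of Fst itself.

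Further genes of the pathway, taken from a list of 79, were examined for context. The annotation held 78 of them and 65 were tested. For H3K9cr after UUO, 1 was higher and 7 were lower, where 2.61% of all genes were higher and 12.5% lower. The gene that rose was Tgfbi, a matrix protein induced by TGF-beta, with 418 to 683 bases in control and 660 to 4053 in UUO libraries, ranges that overlapped (log2 difference 1.38, limma adjusted p = 0.0449). Those that fell most were Hipk2, a nuclear kinase (-1.51, limma adjusted p = 0.00682), the ligand Nodal (-1.27, 0.0249) and Crim1, a tether of BMPs (-1.03, 0.0284). Nodal had 0 and 922 bases in WT control, 1045 and 1422 in ACSS2-/- control and 0 in every UUO library. Its WT control replicate 1 was thus not apart from the UUO libraries. For H3K9ac after UUO 16 of the 65 were lower and 0 higher, where 34.7% of all genes were lower. Those that differed most were Sostdc1 and Eng (both -1.56) and Chrd and Sost (both -1.51), which encode BMP or Wnt antagonists except for the co-receptor endoglin (Eng). Bmp5, a BMP ligand, had 1821 and 1208 bases under H3K9cr peaks in the ACSS2-/- control libraries and 0 in the other 6 H3K9cr and all 6 H3K9ac libraries. It passed the filter only through that group, so this is a description, and its calls in the fit, among them 1 of the 7 lower after UUO, carry no weight.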

How the data were processed

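H3K9cr and H3K9ac ChIP-seq of mouse kidney was analysed in 14 libraries, grouped by the sample titles. According to the study's methods, the authors filtered reads, aligned them with Bowtie2, removed organelle, poorly mapped and duplicate reads, and called peaks with MACS2 at a q-value under 0.05 in each library. The labels give mm10, and tool versions and the MACS2 control are not given in the sources used here. The deposited lists hold peak positions only, so read depth is unknown and deeper libraries may pass more peaks.

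Genes came from RefSeq GRCm38.p6 and were used without strand. Bases under merged peaks were summed per locus (gene body with 3 kb either side), and 1288 values checked with bedtools 2.31.1 showed 0 differences. An overlap of 1 bp counted as a peak at a gene end. The 15272 protein-coding genes with a peak in at least 2 libraries were tested with limma 3.58.1 (R 4.3.3) on log2(bases + 500), with 1 mean per group, all 14 libraries in one fit, two-sided tests and Benjamini-Hochberg adjustment over all genes tested. Differences are on this scale and understate changes of short lengths. Intervals are unions of overlapping peaks over all libraries, so peaks of different libraries in an interval need not share a base.

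The listed genes, the further pathway list and the marker lists were chosen with earlier results of these data known. Genes named were those called in a comparison (the 12 largest where more), those whose H3K9cr groups did not overlap, those without peaks, a fixed set (Tgfb1, Tgfb2, Tgfb3, Tgfbr1, Tgfbr2, Smad3, Smad7, Bmp7, Grem1, Inhba, Thbs1, Skil, Bambi, Id1, Ltbp2), and up to 4 further pathway genes per comparison; others that illustrate levels were named after their values were seen. In a test on simulated data for the H3K9cr comparison of UUO with control, over 15272 genes, 43% of changes of 1 log2 unit and 87% of 2 log2 units were recovered. The genotype comparisons, of 2 libraries against 2, were not simulated, so the share of changes they would recover is not known. Alternatives were another pseudocount, filter, window, scaling, set of peaks or set of libraries, and the replicate number as a block. Tables and plots were made in Python 3.11.15 (pandas 2.3.3, numpy 2.4.6, matplotlib 3.10.9).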

Additional observations from a re-analysis of the deposited data

Results flagged for a closer look

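The effect of UUO on Fst differed between the marks by 0.93 ± 0.15 on the log2 scale (SE, limma, adjusted p = 0.0499), the 1 such call among the listed genes for the marks or the genotypes. It is no evidence of a difference, since Fst passed the filter on genes only through the 2 H3K9ac control libraries, each the only one of its group, and every group with replicates was at 0. It rested on 2 short H3K9ac peaks of 353 and 568 bases in the 2 control libraries, which did not overlap each other, while the other 12 libraries were at 0. Among 12 fits without 1 library the call held in 1, with limma adjusted p from 0.0283 to 0.110. It was absent at equal total covered length. No cause was tested.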

How the results depend on the processing

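Read depth and peak heights are unknown, so a longer cover can mean more mark, a wider peak or a deeper library. The counts of listed genes called were 8 for H3K9cr and 16 for H3K9ac (UUO against control), 6 between the marks, 1 for the effect of UUO between the marks and 0 for each genotype comparison. For H3K9cr in UUO against control, 4 were called with 100 bases added, 2 without the filter on genes, 1 within 3 kb and 0 within 1 kb of the gene ends. Over all genes tested, 1742 of 15272, 1379 of 21887, 1212 of 14450 and 541 of 13645 were then called. The block by replicate number called 5 listed genes, and 1974 of all 15272. For H3K9ac, 9 were called within 3 kb and 6 within 1 kb of the ends, 4 at equal total covered length, 10 with the replicate block and 0 with the compared libraries alone. Among all genes these settings called 4269 of 14450, 1888 of 13645, 1096 and 3389 of 15272, and 0 of 14114. Between the marks, 2 were called within 3 kb and 2 within 1 kb, 20 at equal total length and 3 with the block. Among all genes these were 1285 of 14450, 1075 of 13645, and 7672 and 1675 of 15272. The effect of UUO between the marks was called at 0 listed genes with 2000 bases added, at equal total length, with the longest 15988 peaks of each library and with the block. Among all genes it was called at 3 of 15272, 79 of 15272, 388 of 13811 and 16 of 15272. With those longest peaks, 1 listed gene was called for H3K9cr between genotypes in UUO, 1 in control and 1 in the interaction. Among all 13811 genes then tested, 97, 302 and 247 were called. Listed genes without overlap between H3K9cr groups numbered 9, and 16 at equal total length. As deposited, 2.46% of all genes were higher and 17.3% lower in this way. The share at equal total length is not given here.

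Without each library in turn, the counts ranged from 2 to 7 for H3K9cr and from 9 to 27 for H3K9ac in UUO against control, from 3 to 9 between the marks, from 0 to 4 for the effect of UUO between the marks, and from 9 to 13 for groups without overlap. The counts stayed at 0 for the genotype comparisons and their interaction. Shares over all genes are not given for fits without 1 library, so these ranges describe the fits alone. Leaving out an H3K9ac control library gave no value for H3K9ac comparisons, since its group was then empty. Labels do not say that equal replicate numbers mark shared animals, though the paper states that both marks were mapped in the same samples. Correlations of replicate differences, from -0.25 to 0.14, used title numbers, as did the block, and cannot decide the pairing. In ACSS2-/- UUO kidneys (-0.25 between the marks), peak names and Y-linked peaks match H3K9cr replicate 1 to H3K9ac replicate 2. The fit took libraries of the 2 marks as independent, so comparisons between the marks do not allow for shared animals. The block changed no other call count.

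Directions turned in H3K9cr, UUO against control, at equal total length for Acvr2b (0.0497), Acvrl1 (0.39), Bambi (0.10), Bmpr2 (0.0723), Id1 (0.0321), Ltbp4 (0.16), Skil (0.26), Smad3 (0.10), Smad4 (0.23), Smad7 (0.12), Tgfbr2 (0.26) and Thbs1 (0.35), and in H3K9ac for Bmpr2 (0.13), Smad4 (0.0473), Smad5 (0.11) and Smad7 (0.19). They also turned for Tgfbr2 (0.21) within 3 kb of the ends, for Acvrl1 (0.0217), Smad7 (0.00403) and Tgfbr1 (-0.00919) within 1 kb, and for Tgfbr2 (0.28) and Thbs1 (0.14) with the longest peaks. Without 1 library Acvrl1 ranged from -0.20 to 0.18, Tgfb1 from -0.0367 to 0.21, Nog from -0.19 to 0.43, Thbs1 from -0.18 to 0.10, Skil from -0.23 to 0.00386 and Tgfbr2 from -0.41 to 0.13. Chosen after seeing the data, a fit without the 4 libraries whose peak names hold another number left 1 H3K9cr UUO library per genotype. In it the log2 difference for H3K9cr, UUO against control, was -0.0315 for Tgfb1, 1.71 for Ltbp2 and -1.74 for Tgfbr3. Neither Ltbp2 nor Tgfbr3 was called there. A term for peaks at Y-linked genes, also chosen then, called 9 listed genes in this comparison, where 3106 of all 15272 genes were called. No cause of these changes was tested.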
